A study of Mus musculus with 12 samples.

Results

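A set of 9 genes that restrain mitogen-activated protein (MAP) kinase signalling was followed across 3 CD4+ T cell populations of mouse thymus. They were taken by symbol from the 55450 genes of the deposited table, and all 9 were found in it. They comprise 6 dual-specificity phosphatases (Dusp1, Dusp2, Dusp4, Dusp5, Dusp6 and Dusp10), the Sprouty genes Spry1 and Spry2, and the Sprouty-related gene Spred1. The choice used gene names and no measured value of these libraries, although it was made with earlier results of the same data known.

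MAP kinases such as ERK, p38 and JNK are switched on by phosphorylation when a T cell meets antigen or a cytokine. Dual-specificity MAP kinase phosphatases remove that phosphate, and Sprouty and Spred proteins act further upstream, between the receptor and Ras. Many of these genes are themselves induced by ERK signalling, so they form a negative feedback loop, and the strength of T cell receptor signalling in the thymus is known to bear on whether a CD4+ cell becomes a regulatory T cell. The enzymes are not interchangeable: Dusp5 and Dusp6 act on ERK, Dusp10 prefers p38 and JNK, and Dusp1, Dusp2 and Dusp4 have broader targets.

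Per the labels' protocols, the donors of all cells were CD4-Cre x Foxp3-GFP mice, whose green fluorescent reporter follows Foxp3, the transcription factor that defines regulatory T cells (Tregs). Eos+ Tregs were sorted as CD4+Foxp3+ cells with Ccr6 and Cxcr4, Eos- Tregs as CD4+Foxp3+ cells without either receptor, and conventional T cells (Tconv) as CD4+Foxp3- cells. Eos is the protein made from Ikzf4, and it was not itself sorted on, so the group names stand for the receptor gates. The CD4-Cre transgene, which is active in all T cells that pass through the CD4+CD8+ stage, was shared by the 3 groups, and the labels give no floxed allele, age or sex. Each group held 4 libraries made from 1 ng of total RNA. The title of the series asks about Eos and about thymic Tregs that recirculate.

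Libraries held between 23.9 and 37.9 M expected counts, and 15361 genes passed the filter on low counts. Levels are given in CPM, the usual count scaled to library depth and not to gene length, as mean ± SD over 4 libraries (n = 4). Ikzf4 averaged 314 ± 17.5 CPM in Eos+ Tregs, 170.5 ± 12.7 CPM in Eos- Tregs and 25.3 ± 2.22 CPM in Tconv, so the Eos- gate was not free of its transcript. Of the gate receptors, Ccr6 averaged 246 ± 15.0, 14.4 ± 3.92 and 3.27 ± 1.49 CPM in the same order of groups. It was 17.1-fold higher in Eos+ than in Eos- Tregs (edgeR adjusted p = 9.05e-06). Cxcr4 averaged 39.1 ± 11.35, 28.7 ± 9.25 and 15.2 ± 6.33 CPM, and did not pass between the Treg groups (edgeR adjusted p = 0.402). Foxp3 was lower in the libraries numbered 1 (55.0 CPM in the Eos+ and 53.3 in the Eos- library) than in the other Treg libraries (485.5 to 862 CPM), and was at most 3.42 CPM in Tconv. Leaving out the 3 libraries numbered 1 changed the call of none of the 8 genes tested below in any comparison. The same replicate number stands for a shared name token in the library names, and libraries with the same number deviated from their group means together, so a fit with the number as a block (the replicate block) is given where it changes a call. No label ties the replicates to separate animals, so the p-values below rest on the spread of these libraries, part of which may be technical. Groups of 4 libraries that do not overlap were common. They made up 20% of all tested genes in Eos+ against Eos- Tregs. The share was 33.1% in Eos+ Tregs against Tconv and 20.1% in Eos- Tregs against Tconv.

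The stretch just upstream of the transcription start was read for 8 of the 9 genes from RefSeq (GRCm38.p6), and the 250 bases before the start were searched on both strands for 6 short motifs. These were the cyclic AMP response element half-site TGACG, the AP-1 site TGANTCA, the serum response element core (CArG box), the ETS core CCGGAA, the Ikaros family core TGGGAA, the family to which Eos belongs, and the forkhead site TGTTTAC, the family to which Foxp3 belongs. Sequences are printed for 4 genes: Dusp1 and Dusp5, which held most of the matches, and Dusp6 and Spry1, which moved in opposite directions between the populations and held none. They are written 5′ to 3′ on the strand of the gene, and capitals mark the motif matches. Bases that lie in an exon of a protein-coding gene were left out. The Dusp1 stretch is chr17:26508520-26508722 on the minus strand and ends 48 bases before the start, that of Dusp5 is chr19:53528895-53529108 on the plus strand and ends 37 bases before it, and those of Dusp6 (chr10:99262981-99263230) and Spry1 (chr3:37639697-37639946), both on the plus strand, run up to the start.
Dusp1: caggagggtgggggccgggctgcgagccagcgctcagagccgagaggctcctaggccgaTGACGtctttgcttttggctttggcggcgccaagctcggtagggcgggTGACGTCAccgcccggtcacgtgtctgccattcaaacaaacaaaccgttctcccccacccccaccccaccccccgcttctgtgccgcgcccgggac
Dusp5: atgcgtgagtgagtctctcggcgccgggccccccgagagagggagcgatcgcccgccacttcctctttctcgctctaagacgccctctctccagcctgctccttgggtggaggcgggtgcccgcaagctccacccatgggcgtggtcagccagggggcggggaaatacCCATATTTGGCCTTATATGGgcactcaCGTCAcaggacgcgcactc
Dusp6: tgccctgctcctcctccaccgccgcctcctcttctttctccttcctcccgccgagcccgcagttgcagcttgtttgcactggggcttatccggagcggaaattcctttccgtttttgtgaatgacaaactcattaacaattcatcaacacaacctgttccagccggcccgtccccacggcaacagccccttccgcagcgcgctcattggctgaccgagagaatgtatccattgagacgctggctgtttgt
Spry1: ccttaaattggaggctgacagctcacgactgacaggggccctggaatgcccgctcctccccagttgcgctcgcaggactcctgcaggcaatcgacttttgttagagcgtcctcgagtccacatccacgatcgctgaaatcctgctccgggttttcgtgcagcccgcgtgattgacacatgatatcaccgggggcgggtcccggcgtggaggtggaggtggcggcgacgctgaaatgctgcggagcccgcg

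The Dusp1 stretch held the half-site TGACG at 3 positions, which began 191, 143 and 140 bases before the start. The last 2 of these overlap and are the 2 strands of the palindrome TGACGTCA, the full cyclic AMP response element. In Dusp5 a pair of CArG boxes, CCATATTTGG and CCTTATATGG, began 82 and 72 bases before the start and abut each other, and a half-site on the opposite strand began 55 bases before it. Dusp2, whose sequence is not printed, held 1 Ikaros family core, 207 bases before the start. Dusp6, Dusp10, Spry1, Spry2 and Spred1 held no match to the 6 motifs in this window. Of 32851 promoters of the same length, 17.8% held the half-site, 6.75% the AP-1 site, 1.47% a CArG box, 12.0% the ETS core, 21.6% the Ikaros family core and 3.17% the forkhead site. A match describes the letters and does not show that a factor binds there.

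Dusp1 (ENSMUSG00000024190.7, chromosome 17, 26505590 to 26562128, mm10) encodes a nuclear phosphatase of p38, JNK and ERK that is made within minutes of stimulation. It was the most abundant of the 9 genes in every library, both in CPM and per kb of exon. Its level was 1735, 2203, 2397 and 2106 CPM in replicates 1 to 4 of the Eos+ Tregs, 1157, 1383, 2034 and 1815 CPM in Eos- Tregs, and 645, 615.5, 1215 and 1346 CPM in Tconv. All Eos+ Treg libraries lay above all Tconv libraries, while the Eos- Treg libraries overlapped both other groups. Dusp1 averaged 2110 ± 278 CPM in Eos+ Tregs and 955 ± 379 CPM in Tconv, 2.21-fold higher in the Tregs (log2 fold change 1.14, SE 0.26, edgeR adjusted p = 0.00451). Eos- Tregs averaged 1597 ± 399 CPM, 1.67-fold the Tconv level, which did not pass the test (edgeR adjusted p = 0.0718) but did with the replicate block (edgeR adjusted p = 0.00447), and all 4 numbers had the higher value in the Treg library, by 1.35- to 2.25-fold. Between Eos+ and Eos- Tregs the log2 difference was 0.40 (SE 0.25, edgeR adjusted p = 0.332).

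Dusp2 (ENSMUSG00000027368.6, chromosome 2, 127336159 to 127338376), also called PAC-1, is a nuclear phosphatase known from activated T and B cells. It stood at 226, 165, 232 and 276 CPM in Eos+ Tregs, 294, 279.8, 373 and 442 CPM in Eos- Tregs, and 321, 179, 285 and 285 CPM in Tconv. The Eos+ Treg libraries all lay below the Eos- Treg libraries, whereas Tconv overlapped both. The means were 225 ± 45.8 CPM in Eos+ Tregs and 347 ± 75.3 CPM in Eos- Tregs, 1.54-fold lower in Eos+ Tregs, at the threshold and not past it (log2 fold change -0.63, SE 0.20, edgeR adjusted p = 0.0502). With the replicate block the same difference passed (edgeR adjusted p = 0.00238). Tconv averaged 268 ± 61.2 CPM. The log2 difference from Tconv was -0.25 (SE 0.20, edgeR adjusted p = 0.394) for Eos+ Tregs and 0.38 (SE 0.20, edgeR adjusted p = 0.249) for Eos- Tregs, and only that of Eos- Tregs passed with the block (edgeR adjusted p = 0.0319, against 0.103 for Eos+ Tregs).

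Dusp4 (ENSMUSG00000031530.6, chromosome 8, 34807297 to 34819894) encodes a nuclear phosphatase of ERK and JNK, and of the 8 tested genes it had the largest difference between Tregs and Tconv. Its level was 80.6, 156, 184 and 192 CPM in Eos+ Tregs, 48.5, 100.1, 105 and 131 CPM in Eos- Tregs, and 6.73, 6.96, 9.26 and 14.3 CPM in Tconv. Every Treg library lay above every Tconv library. Dusp4 averaged 153 ± 50.6 CPM in Eos+ Tregs, 95.9 ± 34.4 CPM in Eos- Tregs and 9.31 ± 3.50 CPM in Tconv. It was 16.4-fold higher in Eos+ Tregs than in Tconv (log2 fold change 4.03, SE 0.37, edgeR adjusted p = 4.81e-06) and 10.3-fold higher in Eos- Tregs than in Tconv (log2 fold change 3.36, SE 0.36, edgeR adjusted p = 5.71e-05). The 2 Treg groups overlapped, and their log2 difference of 0.67 (SE 0.33) did not pass the test (edgeR adjusted p = 0.197). Within each number, however, the Eos+ library was 1.47- to 1.76-fold above the Eos- library, and with the block the difference passed (edgeR adjusted p = 0.00529). The lowest library of each group, Tconv included, was replicate 1, and Foxp3 was low in the Treg libraries of that number. The Treg genes Il2ra and Ctla4 were not lowest there. Il2ra was 538 CPM in Eos+ and 496 CPM in Eos- Treg replicate 1, within group ranges of 402 to 642 and 355 to 554 CPM. Ctla4 was 436 and 261 CPM, within 335 to 489 and 198 to 350 CPM. Ikzf4 was lowest in replicate 1 only in Eos- Tregs (155 CPM). Without the 3 libraries numbered 1 the Dusp4 means were 177 ± 18.8, 111.7 ± 16.5 and 10.2 ± 3.74 CPM (n = 3) in Eos+ Tregs, Eos- Tregs and Tconv.

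Dusp5 (ENSMUSG00000034765.6, chromosome 19, 53529109 to 53542431) encodes a nuclear phosphatase with ERK as its substrate. It stood at 102, 140.4, 203 and 243 CPM in Eos+ Tregs, 149, 187, 238 and 371 CPM in Eos- Tregs, and 104, 119, 174 and 312 CPM in Tconv. The 3 groups overlapped throughout, and replicate 1 was the lowest and replicate 4 the highest library of each. Its means of 172 ± 62.8, 236 ± 97.0 and 177 ± 95 CPM in Eos+ Tregs, Eos- Tregs and Tconv gave no call in any of the 3 comparisons (edgeR adjusted p = 0.471 for Eos+ against Eos- Tregs, 0.946 for Eos+ Tregs against Tconv and 0.535 for Eos- Tregs against Tconv). The 95% interval of the log2 difference between Eos+ Tregs and Tconv ran from -0.78 to 0.69. With the block, Dusp5 was lower in Eos+ than in Eos- Tregs (edgeR adjusted p = 0.00742) and higher in Eos- Tregs than in Tconv (edgeR adjusted p = 0.00652), and the Eos- library was the highest of the 3 within each number. An annotated antisense transcript, AC137853.2, shares 547 exon bases with Dusp5, and the library kit does not keep strand, so reads of the 2 cannot be told apart there; the antisense gene was assigned at most 4.22 CPM.

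Dusp6 (ENSMUSG00000019960.8, chromosome 10, 99263231 to 99267489), the cytoplasmic phosphatase of ERK, ran opposite to Dusp4. It stood at 55.7, 40.5, 57.9 and 72.9 CPM in Eos+ Tregs, 90.3, 84.8, 101 and 117 CPM in Eos- Tregs, and 164, 100.2, 137 and 173 CPM in Tconv. The Eos+ Treg libraries lay below all others, and the Eos- Treg libraries overlapped Tconv only through Tconv replicate 2. Dusp6 averaged 56.8 ± 13.2 CPM in Eos+ Tregs and 98.3 ± 14 CPM in Eos- Tregs, 1.73-fold lower in Eos+ Tregs (log2 fold change -0.79, SE 0.19, edgeR adjusted p = 0.0127). Against the 143.5 ± 32.5 CPM of Tconv, Eos+ Tregs were 2.53-fold lower (log2 fold change -1.34, SE 0.19, edgeR adjusted p = 0.00017). Eos- Tregs were 1.46-fold below Tconv, which passed only with the block (edgeR adjusted p = 0.0731 without it and 0.00313 with it).

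Dusp10 (ENSMUSG00000039384.8, chromosome 1, 184013302 to 184075636) encodes a phosphatase of p38 and JNK rather than of ERK. Its level was 47.2, 61.2, 75.8 and 108 CPM in Eos+ Tregs, 117, 144, 171 and 216 CPM in Eos- Tregs, and 164, 169, 177 and 230 CPM in Tconv. Eos+ Treg libraries lay below all libraries of the other groups, and Eos- Tregs overlapped Tconv. The means were 73.0 ± 25.9, 162 ± 42.1 and 185 ± 30.3 CPM in Eos+ Tregs, Eos- Tregs and Tconv. Dusp10 fell 2.22-fold in Eos+ against Eos- Tregs (log2 fold change -1.15, SE 0.24, edgeR adjusted p = 0.00526) and 2.53-fold in Eos+ Tregs against Tconv (log2 fold change -1.34, SE 0.24, edgeR adjusted p = 0.000897). Eos- Tregs and Tconv differed by -0.19 on the log2 scale (SE 0.23, edgeR adjusted p = 0.67).

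Spry1 (ENSMUSG00000037211.12, chromosome 3, 37639947 to 37644598), a membrane-associated inhibitor of Ras and ERK signalling, was the gene among the 9 that passed the test in all 3 comparisons. It stood at 100.1, 128, 111 and 90.0 CPM in Eos+ Tregs, 39.3, 38.7, 55.6 and 53.3 CPM in Eos- Tregs, and 6.80, 6.21, 10.7 and 12.2 CPM in Tconv. The 3 groups formed 3 separate ranges, with no overlap between any pair. For a single pair of groups, 20% to 33.1% of all tested genes did not overlap. Spry1 averaged 107 ± 16.3 CPM in Eos+ Tregs, 46.7 ± 8.95 CPM in Eos- Tregs and 8.98 ± 2.94 CPM in Tconv. It was 2.3-fold higher in Eos+ than in Eos- Tregs (log2 fold change 1.20, SE 0.21, edgeR adjusted p = 0.00206), 11.9-fold higher in Eos+ Tregs than in Tconv (log2 fold change 3.57, SE 0.23, edgeR adjusted p = 2.9e-07) and 5.19-fold higher in Eos- Tregs than in Tconv (log2 fold change 2.38, SE 0.22, edgeR adjusted p = 1.96e-05). The antisense gene Gm42922 shares 710 exon bases with Spry1 and was assigned at most 1.21 CPM.

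Spry2 (ENSMUSG00000022114.5, chromosome 14, 105891947 to 105896819), the closest relative of Spry1 in the set, was near the limit of detection. It held 0, 3, 0 and 7 counts in Eos+ Tregs, 1, 1, 7 and 6 counts in Eos- Tregs, and 6, 3, 18 and 22 counts in Tconv, at most 0.578 CPM in any library. The 2 zeros allow up to 0.0941 and 0.0875 CPM in Eos+ Treg replicates 1 and 3, which covers counting error only. Spry2 did not pass the filter, and with no filter none of its 3 comparisons passed (edgeR adjusted p = 0.809 for Eos+ against Eos- Tregs, 0.259 for Eos+ Tregs against Tconv and 0.535 for Eos- Tregs against Tconv).

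Spred1 (ENSMUSG00000027351.14, chromosome 2, 117121374 to 117182279) encodes a Sprouty-related protein that brings the Ras inhibitor neurofibromin to the membrane. It was low in all groups, at 3.39, 11.1, 12.0 and 11.5 CPM in Eos+ Tregs, 20.3, 19.0, 17.3 and 20.1 CPM in Eos- Tregs, and 19.9, 20, 23.0 and 17.6 CPM in Tconv. Eos+ Treg libraries lay below all others, replicate 1 farthest, and Eos- Tregs and Tconv overlapped. Spred1 averaged 9.47 ± 4.07, 19.2 ± 1.38 and 20.1 ± 2.21 CPM in Eos+ Tregs, Eos- Tregs and Tconv. It was 2.12-fold lower in Eos+ Tregs than in Tconv (log2 fold change -1.09, SE 0.30, edgeR adjusted p = 0.0139) and 2.02-fold lower in Eos+ than in Eos- Tregs (log2 fold change -1.02, SE 0.30, edgeR adjusted p = 0.0337). The call between the 2 Treg groups ended on leaving out Eos+ Treg replicate 2 (edgeR adjusted p = 0.0528) or any of the Eos- Treg replicates (edgeR adjusted p = 0.0535 to 0.0721). Without the low Eos+ Treg replicate 1 it held with a smaller difference (log2 fold change -0.74, edgeR adjusted p = 0.00443). Eos- Tregs and Tconv differed by -0.07 on the log2 scale (SE 0.29, edgeR adjusted p = 0.918).

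**Figure D1:**
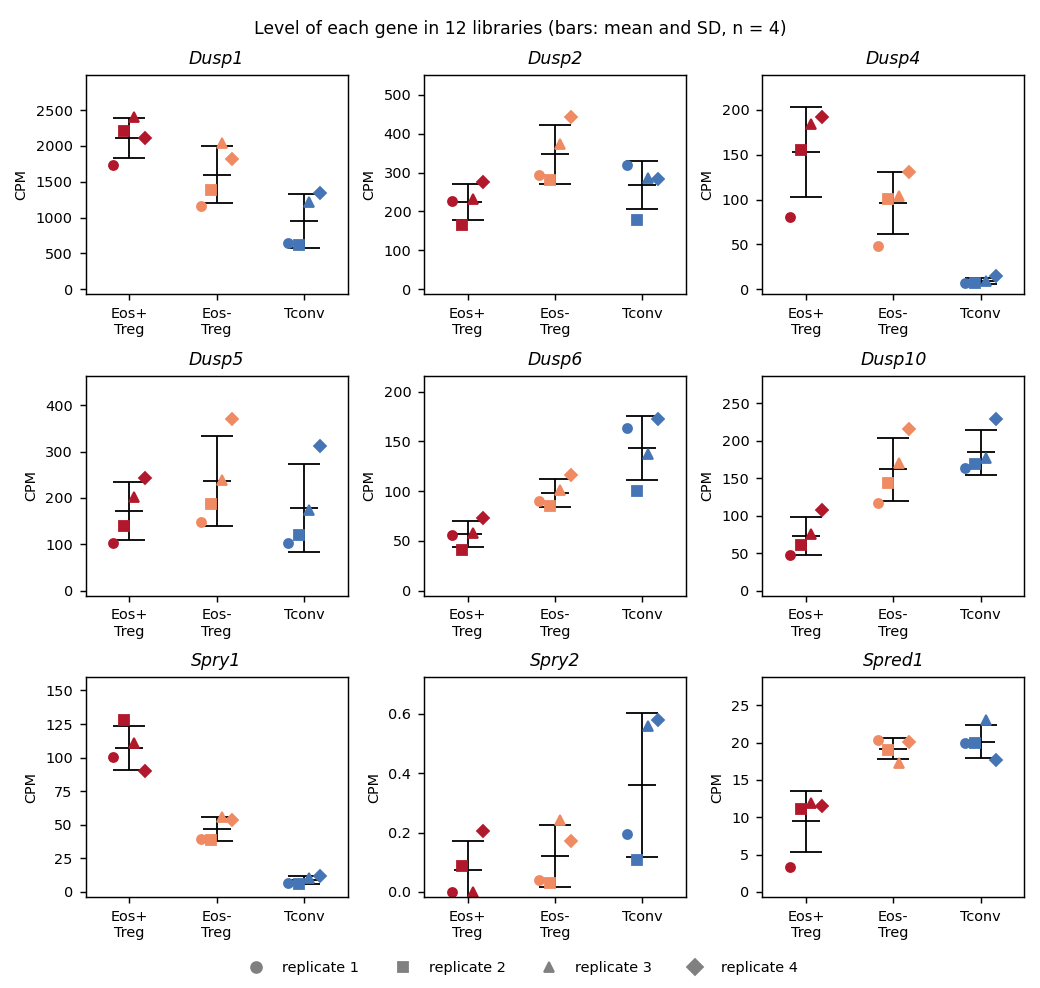
Level of each of the 9 genes in CPM (vertical axes, starting at or just below 0 and scaled per gene) in Eos+ Tregs, Eos- Tregs and Tconv; points are libraries with the replicate number as the symbol, and bars are the mean and SD (n = 4). Spry1 forms 3 separate ranges, Dusp4 separates both Treg groups from Tconv, and Dusp6, Dusp10 and Spred1 are lowest in Eos+ Tregs.

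Across the 9 genes, the comparison of Eos+ with Eos- Tregs gave 1 higher gene (Spry1) and 3 lower genes (Dusp6, Dusp10 and Spred1) among the 8 tested, with 4 that did not pass. Over all 15361 tested genes, 9.82% were called higher and 6.45% lower in the same comparison, and the median log2 fold change was -0.54 for the 8 genes and 0.003 for all tested genes. With the replicate block, 2 of the 8 were higher and 5 lower, against 22.8% of all tested genes called in either direction; Dusp4 joined the higher genes and Dusp2 and Dusp5 the lower ones. Without the 3 libraries numbered 1 the same 4 genes were called, with log2 fold changes of 1.15 for Spry1 (edgeR adjusted p = 0.0101), -0.83 for Dusp6 (edgeR adjusted p = 0.0413), -1.13 for Dusp10 (edgeR adjusted p = 0.00739) and -0.72 for Spred1 (edgeR adjusted p = 0.0118).

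Eos+ Tregs against Tconv gave 3 higher genes (Dusp4, Spry1 and Dusp1) and 3 lower genes (Dusp6, Dusp10 and Spred1), while Dusp2 and Dusp5 did not pass. The shares over all tested genes were 17.3% higher and 13% lower, with medians of -0.15 for the 8 genes and -0.008 for all. The block left these counts at 3 higher and 3 lower, against 36.3% called over all tested genes. Eos- Tregs against Tconv gave 2 higher genes (Dusp4 and Spry1) and 0 lower, with 6 that did not pass (at an unadjusted p under 0.05, 3 were higher and 1 lower), where 8.76% of all tested genes were higher and 5.89% lower. The medians there were 0.39 for the 8 genes and -0.012 for all tested genes, and the block gave 5 higher (Dusp1, Dusp2, Dusp4, Dusp5 and Spry1) and 1 lower (Dusp6), against 21.5% of all tested genes. DESeq2 called 4 of the 8 in this comparison, 3 higher and 1 lower, adding Dusp1 (adjusted p = 0.0123) and Dusp6 (adjusted p = 0.0309). The 3 comparisons share libraries pairwise, so their counts are not separate evidence. With 8 tested genes these counts describe the set and nothing particular to it was tested.

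**Figure D2:**
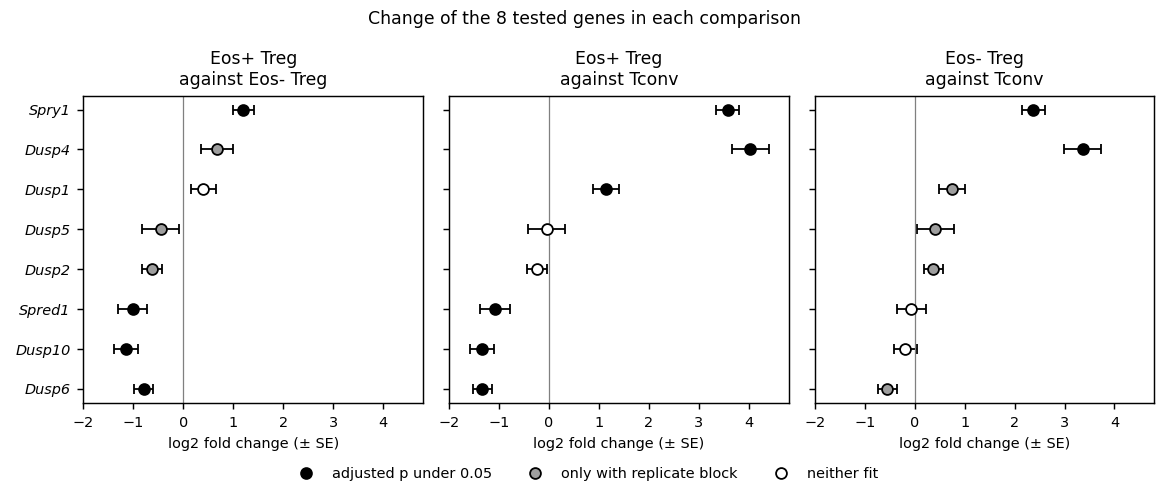
Log2 fold change with its standard error (horizontal axes) of the 8 tested genes in the 3 comparisons; filled points have an edgeR adjusted p under 0.05, grey points pass only with the replicate block, and open points pass in neither fit. Spry1 is filled on the higher side in all 3 panels, and Dusp6, Dusp10 and Spred1 are filled on the lower side in both panels with Eos+ Tregs.

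The genes can be set against each other once their levels are divided by exon length. In CPM per kb of exon, Dusp1 averaged 637 ± 83.9 in Eos+ Tregs, against 482 ± 120.5 in Eos- Tregs and 289 ± 115 in Tconv. Dusp2 was next, at 112 ± 22.9, 173 ± 37.6 and 134 ± 30.5 CPM per kb in the same order of groups. Spred1 was the lowest of the 8 tested genes, at 1.40, 2.83 and 2.97 CPM per kb. Dusp1 thus made up 66.8% ± 3.85 of the summed level of the 9 genes in Eos+ Tregs (SD, n = 4), against 54.2% ± 3.66 in Eos- Tregs and 46.3% ± 6.50 in Tconv. The opposite order held for the mean shares of Dusp2, Dusp5, Dusp6, Dusp10, Spry2 and Spred1. In Eos+ Tregs, Eos- Tregs and Tconv they were 1.91%, 3.61% and 7.74% for Dusp6 and 2.47%, 5.99% and 10.4% for Dusp10. Those of Dusp2 were 11.9%, 19.7% and 22.7%, and those of Dusp5 7.13%, 10.5% and 11.3%. Shares in a library add up to a fixed whole, so a larger share of Dusp1 leaves less for the other genes. The levels of Dusp2 and Dusp5 did not pass between Eos+ Tregs and Tconv (edgeR adjusted p = 0.394 and 0.946). The sum over the 9 genes ran from 776 to 1072 CPM per kb in Eos+ Tregs, 658 to 1096 in Eos- Tregs and 419 to 818 in Tconv, ranges that overlap. Without Dusp1 the sums were 252 to 397, 308 to 548 and 233 to 411 CPM per kb in the same groups, and these overlap as well.

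**Figure D3:**
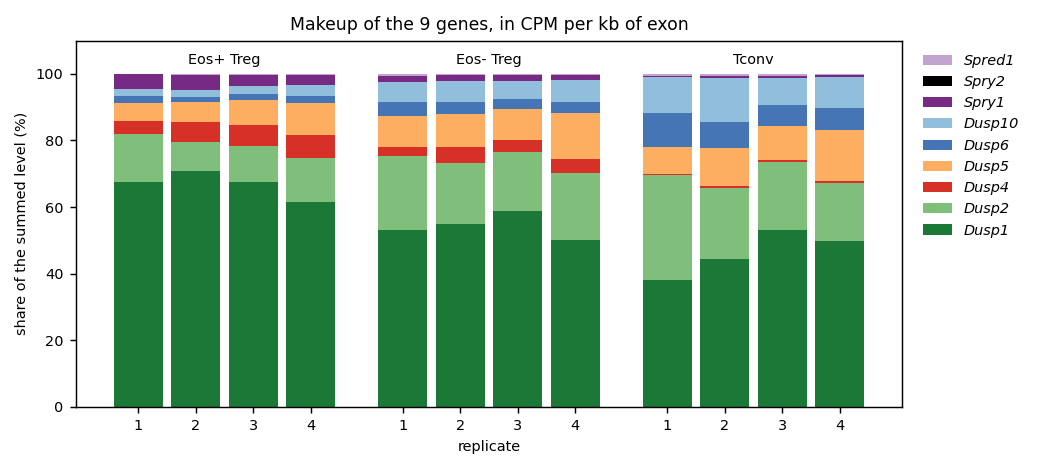
Share in percent (vertical axis) of each gene in the summed level of the 9 genes, in CPM per kb of exon, for each library; each bar is a library, grouped as Eos+ Tregs, Eos- Tregs and Tconv with replicates 1 to 4. Dusp1 takes 61.5% to 70.8% of each Eos+ Treg bar, 50% to 58.8% of each Eos- Treg bar and 38.1% to 53.0% of each Tconv bar.

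Because relative levels within a library do not depend on its depth, 2 pairs of related genes were also given as ratios per kb. Dusp4 over Dusp6, a nuclear over the cytoplasmic ERK phosphatase, was 1.65, 4.39, 3.63 and 3 in Eos+ Tregs, 0.614, 1.35, 1.2 and 1.28 in Eos- Tregs, and 0.047, 0.0793, 0.0771 and 0.0944 in Tconv. Dusp4 thus exceeded Dusp6 in every Eos+ Treg library and in all Eos- Treg libraries but replicate 1, and its highest ratio to Dusp6 in Tconv was 0.0944. Spry1 over Spred1 was 69, 27, 21.7 and 18.3 in Eos+ Tregs, 4.52, 4.75, 7.51 and 6.2 in Eos- Tregs, and 0.796, 0.726, 1.09 and 1.62 in Tconv. Both ratios split the 3 groups into ranges that do not overlap, as a description of genes picked with their levels known. Other pairs were computed as well. Dusp4 over Dusp5 and Dusp10 over Dusp4 also split the 3 groups, while Dusp2 over Dusp4 overlapped between the Treg groups. That last ratio was 1.45 to 3.84 in Eos+ Tregs and 3.82 to 8.28 in Eos- Tregs.

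The replicate number moved with several of the genes. Replicate 4 was the highest library of all 3 groups for Dusp4, Dusp5, Dusp6 and Dusp10, replicate 1 the lowest of all 3 for Dusp4, Dusp5 and Dusp10, and replicate 2 the lowest of all 3 for Dusp2 and Dusp6. Within a number the Eos+ to Eos- ratio of Dusp10 was 0.403, 0.424, 0.444 and 0.498, that of Dusp6 0.618, 0.478, 0.571 and 0.625, and that of Spry1 2.55, 3.3, 2 and 1.69. These ratios spread less than the levels for Dusp10, whose Eos+ Treg libraries alone ran from 47.2 to 108 CPM. Those of Spry1 spread more than its levels within either Treg group, and so did those of Spred1, at 0.167, 0.581, 0.692 and 0.573, than its levels in any group. What the shared name token stands for is not given in the labels, and it was not tested further.

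**Figure D4:**
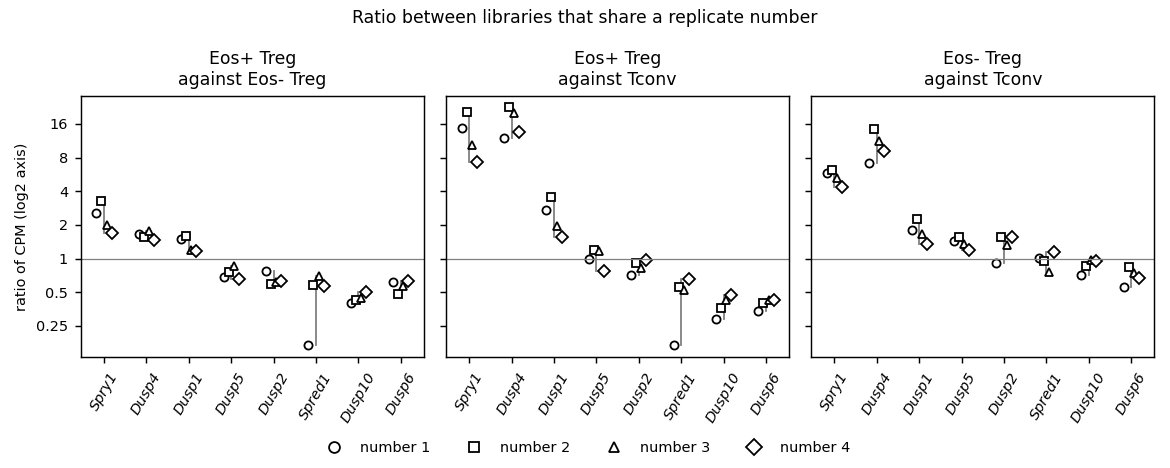
Ratio of CPM between the 2 libraries that share a replicate number (vertical axis, log2 scale) for the 8 tested genes in the 3 comparisons; symbols mark the number and grey lines span the 4 ratios. Spry1, Dusp4 and Dusp1 lie above 1, and Dusp6 and Dusp10 lie below 1, for all 4 numbers in all 3 panels. Spred1 of number 1 lies far below the other ratios in both panels with Eos+ Tregs.

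Genes measured in other cell types and under stress were read beside these results. The summed level of 10 B cell markers was 1400 to 1840 CPM in Eos+ Tregs, 177 to 474 CPM in Eos- Tregs and 229 to 405 CPM in Tconv, and 4 of the 9 tested markers were higher and 0 lower in Eos+ than in Eos- Tregs. At an unadjusted p under 0.05 all 9 were higher there, and both DESeq2 and the replicate block called 6. Most of that sum was Ighm (1523 ± 138, 279 ± 118 and 250 ± 65.2 CPM), while Pax5, which defines B cells, averaged 0.17, 0.03 and 0.29 CPM. The 11 dendritic cell and macrophage markers summed to 450 to 1030, 88.3 to 490 and 173 to 535 CPM, with 3 of 10 tested higher in Eos+ than in Eos- Tregs, and 5 with the block. The 3 were Zbtb46 (25.4 ± 8.15 against 3.28 ± 1.55 CPM, edgeR adjusted p = 0.000258), Xcr1 (2.91 ± 2.03 against 0.433 ± 0.283 CPM, edgeR adjusted p = 0.00784) and Cd74 (508 ± 214 against 162 ± 141 CPM, edgeR adjusted p = 0.046). Clec9a averaged at most 0.25 CPM in each group. The 10 markers of CD4+CD8+ thymocytes summed to 194 to 515, 167 to 533 and 209 to 461 CPM, and 0 of 10 passed in any comparison with edgeR without the block, at an unadjusted p under 0.05 or with DESeq2. With the block Cd8b1 was lower in Eos+ Tregs than in Tconv (edgeR adjusted p = 0.00873). Replicate 1 was the highest library of each group for the B cell and for the dendritic cell and macrophage sums, and of both Treg groups for the thymocyte sum. The 10 epithelial and stromal markers summed to 136 to 191, 233 to 338 and 196 to 224 CPM, mostly Pecam1. Of the 5 tested, 2 were higher and 1 lower in Eos+ than in Eos- Tregs. Pecam1 was lower (136 ± 27.3 against 267.5 ± 45.1 CPM, edgeR adjusted p = 0.000828). Epcam (30.4 ± 6.75 against 12.7 ± 2.35 CPM, edgeR adjusted p = 0.000652) and Aire (1.58 ± 0.82 against 0.02 ± 0.03 CPM, edgeR adjusted p = 0.0299) were higher. Over all tested genes, 9.82% were higher and 6.45% lower in that comparison. The 8 CD8, NK and cytotoxic markers summed to 127 to 190, 53.5 to 123 and 119 to 428 CPM. Of the 7 tested, 1 (Nkg7) was higher and 0 lower in Eos+ than in Eos- Tregs. Against Tconv, 3 were lower in Eos+ Tregs (Gzmb, Klrd1 and Klrb1c), where 13% of all tested genes were. In Eos- Tregs 2 were lower (Gzmb and Klrb1c), and 4 with the block, where 5.89% were without it. No marker was called higher against Tconv. Klrb1c averaged 1.88, 4.76 and 51.9 CPM and Gzmb 8.70, 4.89 and 38.1 CPM in Eos+ Tregs, Eos- Tregs and Tconv. The part of such cells in the changes of Spry1, Dusp6, Dusp10 and Spred1, and in the low Dusp4 of replicate 1, was not tested. In bulk RNA, fewer cells that express a gene and less RNA per cell cannot be told apart.

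Among genes induced by the same signals, 9 of 23 tested immediate early genes were higher and 0 lower in Eos+ Tregs than in Tconv, where 17.3% of all tested genes were higher, and their median log2 fold change was 0.47 (10 higher and 1 lower at an unadjusted p under 0.05 and with DESeq2, 11 higher and 0 lower with the block). Eos- Tregs against Tconv gave 7 higher and 0 lower with a median of 0.39 (8 higher and 0 lower at an unadjusted p under 0.05 and with DESeq2, 11 and 0 with the block). Eos+ against Eos- Tregs gave 2 higher and 1 lower with a median of 0.27, and 6 higher and 3 lower with the block. The shares of all tested genes were 9.82% higher and 6.45% lower there, and 8.76% and 5.89% in Eos- Tregs against Tconv. In Eos+ Tregs against Tconv, 13% of all tested genes were lower. The block called 22.8% of all tested genes in Eos+ against Eos- Tregs. It called 36.3% in Eos+ Tregs against Tconv and 21.5% in Eos- Tregs against Tconv. Jun, a subunit of AP-1, averaged 1354 ± 255 CPM in Eos+ Tregs, 803 ± 138 CPM in Eos- Tregs and 506 ± 86.7 CPM in Tconv, and passed in all 3 comparisons (edgeR adjusted p = 0.0072 for Eos+ against Eos- Tregs, 3.36e-05 for Eos+ Tregs against Tconv and 0.0161 for Eos- Tregs against Tconv). Nr4a2, an orphan nuclear receptor, did so as well, at 33.9 ± 6.87, 17.2 ± 5.10 and 7.95 ± 1.84 CPM. Fosb was 3.61-fold higher in Eos+ Tregs than in Tconv (edgeR adjusted p = 0.00888). Phlda1 was 1.98-fold higher in Eos+ Tregs (edgeR adjusted p = 0.00249) and 1.8-fold higher in Eos- Tregs (edgeR adjusted p = 0.0135) than in Tconv. Klf2, a factor tied to T cell egress, was 2.1-fold higher in Eos- Tregs than in Tconv (564 ± 178 against 269 ± 54.3 CPM, edgeR adjusted p = 0.0285). Eos+ Tregs, at 295 ± 127 CPM, did not pass against Tconv (edgeR adjusted p = 0.778). They were lower than Eos- Tregs (edgeR adjusted p = 0.0477), although the ranges of the Treg groups overlapped. With the block Nr4a1 (434.5 ± 102 against 654 ± 155 CPM, edgeR adjusted p = 0.000796) and Nr4a3 (20.3 ± 15.1 against 33.8 ± 12.0 CPM, edgeR adjusted p = 0.0331) were lower in Eos+ than in Eos- Tregs as well. The 24 immediate early genes summed to 5480, 7720, 9780 and 8510 CPM in Eos+ Tregs, 5240, 6210, 8090 and 8610 CPM in Eos- Tregs, and 4670, 4650, 6970 and 6050 CPM in Tconv, so replicates 1 and 2 were the lowest of each group, as they were for Dusp1 in Eos- Tregs and Tconv. The 11 heat shock genes, which respond to handling stress, summed to 6790 to 13100, 6810 to 13000 and 8410 to 15200 CPM, and with edgeR without the block 0 of 11 passed in either comparison with Eos+ Tregs, where 1 was lower than in Tconv at an unadjusted p under 0.05 and DESeq2 called 0. Hspa1a averaged 674 ± 441 CPM in Eos+ Tregs, 658 ± 511.5 CPM in Eos- Tregs and 1514 ± 705.5 CPM in Tconv, and with the block was lower than in Tconv in both Treg groups (edgeR adjusted p = 0.00045 for Eos+ and 0.000765 for Eos- Tregs). The same held for Hspa1b (edgeR adjusted p = 0.00025 and 0.000896). Hsph1 was higher with the block in Eos+ Tregs than in Eos- Tregs (1.35-fold, edgeR adjusted p = 0.00197) and than in Tconv (1.27-fold, edgeR adjusted p = 0.00478). Hspa5 was lower in Eos- Tregs than in Tconv without the block (edgeR adjusted p = 0.0307). The part of handling in the level of Dusp1 was not tested.

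The relatives of the 9 genes gave the following counts. Of all tested genes, 17.3% were higher and 13% lower in Eos+ Tregs than in Tconv, and 36.3% were called with the block. Of the 3 tested relatives among Spry4, Spred2, Spred3 and the receptor-level inhibitor Il17rd (Sef), 1 was higher and 2 lower in Eos+ Tregs than in Tconv (1 and 1 with the block), and 0 passed between Eos+ and Eos- Tregs with edgeR, at an unadjusted p under 0.05, with DESeq2 or with the block. Spred2 averaged 6.14 ± 1.64, 7.91 ± 0.87 and 12.4 ± 0.59 CPM in Eos+ Tregs, Eos- Tregs and Tconv, and was lower than in Tconv in Eos+ Tregs (2.02-fold, edgeR adjusted p = 0.00151) and in Eos- Tregs (1.57-fold, edgeR adjusted p = 0.0392). Il17rd held 89 counts in the 4 Eos+ Treg libraries, 16 in the Eos- Treg libraries and 0 in the Tconv libraries, at least 28.3-fold higher in Eos+ Tregs than in Tconv against a floor of 3 counts over the group (edgeR adjusted p = 0.00549). Among the other MAP kinase phosphatases, Dusp7, a cytoplasmic ERK phosphatase like Dusp6, averaged 34.2 ± 6.54, 38.6 ± 6.40 and 60.9 ± 7.6 CPM, and was 1.78-fold lower in Eos+ Tregs (edgeR adjusted p = 0.00134) and 1.58-fold lower in Eos- Tregs (edgeR adjusted p = 0.0129) than in Tconv. Dusp16, a phosphatase of JNK, was 3.3-fold higher in Eos+ Tregs than in Tconv (5.48 ± 1.89 against 1.65 ± 0.41 CPM, edgeR adjusted p = 0.0135), and with the block it was also higher than in Eos- Tregs (2.08 ± 1.5 CPM, edgeR adjusted p = 0.0183).

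The 8 tested small dual-specificity phosphatases, which lack the MAP kinase docking domain, gave 1 higher and 1 lower gene between Eos+ and Eos- Tregs. Over all tested genes, 9.82% were higher and 6.45% lower there. Dusp14, which acts on the kinase adaptor TAB1, averaged 27.2 ± 4.86 CPM in Eos+ Tregs, 1.00 ± 0.58 CPM in Eos- Tregs and 0.236 ± 0.146 CPM in Tconv. It was 27.3-fold higher in Eos+ than in Eos- Tregs (edgeR adjusted p = 5.98e-05), a larger fold than any of the 8 tested members showed between the Treg groups. Dusp11, which acts on RNA, was 1.49-fold lower in Eos+ than in Eos- Tregs (95.8 ± 5.33 against 143 ± 14.2 CPM, edgeR adjusted p = 0.00178). Dusp22, a phosphatase of JNK signalling and of Lck, was 1.56-fold lower in Eos+ Tregs (edgeR adjusted p = 0.00543) and 1.52-fold lower in Eos- Tregs (edgeR adjusted p = 0.0163) than in Tconv.

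Counts for the kinase cascade on which these inhibitors act were as follows. Of 19 genes that lead from the T cell receptor through Ras to ERK, 1 was higher and 3 lower in Eos+ than in Eos- Tregs (median log2 fold change -0.03), where 9.82% of all tested genes were higher and 6.45% lower, 0 higher and 3 lower in Eos+ Tregs than in Tconv (median -0.01), and 0 higher and 1 lower in Eos- Tregs than in Tconv (median -0.02). At an unadjusted p under 0.05, 1 gene was higher in Eos+ Tregs than in Tconv and 2 in Eos- Tregs than in Tconv, and DESeq2 called 0 and 1 of them higher. With the block, 3 were higher and 3 lower in Eos+ than in Eos- Tregs. Against Tconv it gave 1 higher and 3 lower in Eos+ Tregs, and 1 higher and 4 lower in Eos- Tregs. It called 22.8%, 36.3% and 21.5% of all tested genes in either direction in the same order of comparisons. Without the block, 17.3% of all tested genes were higher and 13% lower in Eos+ Tregs than in Tconv. The shares were 8.76% and 5.89% in Eos- Tregs against Tconv. The 3 lower genes with Eos+ Tregs were the adaptor Lat (533 ± 75.4, 836 ± 104 and 1011 ± 101 CPM), the Ras activator Rasgrp1 (446 ± 63.9, 746 ± 117 and 777 ± 94.1 CPM) and Nras (65.0 ± 3.40, 93.1 ± 4.36 and 123 ± 4.51 CPM) in Eos+ Tregs, Eos- Tregs and Tconv.

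In Eos+ against Eos- Tregs, 9.82% of all tested genes were higher and 6.45% lower, and 22.8% were called in either direction with the block. Among 9 tested Ras GTPase-activating proteins and Dok adaptors, 2 were higher and 3 lower in that comparison, and 2 and 4 with the block. Dab2ip changed most among these, 4.32-fold higher but low, at 3.07 ± 1.12 against 0.71 ± 0.52 CPM (edgeR adjusted p = 0.0337). Rasal1 followed, at 4.5 ± 1.57 CPM in Eos+ Tregs, 16.2 ± 3.66 CPM in Eos- Tregs and 30.0 ± 3.58 CPM in Tconv. It was 3.58-fold lower in Eos+ than in Eos- Tregs (edgeR adjusted p = 0.000236). Dok1, an adaptor that recruits such proteins, was 1.86-fold higher in Eos+ than in Eos- Tregs (29.6 ± 4.29 against 15.9 ± 2.28 CPM, edgeR adjusted p = 0.00142). Rasa3 was 1.55-fold lower in Eos+ than in Eos- Tregs (edgeR adjusted p = 0.041). Rasa1 was 1.46-fold higher in Eos+ Tregs (edgeR adjusted p = 0.000258) and 1.44-fold higher in Eos- Tregs (edgeR adjusted p = 0.00097) than in Tconv. Rasal3 was 1.56-fold lower in Eos+ Tregs (edgeR adjusted p = 0.000978) and 1.34-fold lower in Eos- Tregs (edgeR adjusted p = 0.0285) than in Tconv.

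In the p38 and JNK cascade, the target of Dusp1 and Dusp10, 6 of 16 tested genes were higher and 3 lower in Eos+ Tregs than in Tconv, 4 higher and 0 lower in Eos- Tregs than in Tconv (1 lower at an unadjusted p under 0.05, 0 with DESeq2), and 2 higher and 2 lower in Eos+ than in Eos- Tregs. Over all tested genes, 17.3% were higher and 13% lower, 8.76% and 5.89%, and 9.82% and 6.45% in the same order of comparisons. The block gave 6 higher and 6 lower, 5 higher and 0 lower, and 4 higher and 4 lower in the same 3 comparisons. With it, 36.3%, 21.5% and 22.8% of all tested genes were called in either direction. The p38 activator Map2k3 averaged 140.1 ± 28.8 CPM in Eos+ Tregs, 79.9 ± 11.3 CPM in Eos- Tregs and 76.3 ± 5.85 CPM in Tconv, and was 1.75-fold higher in Eos+ than in Eos- Tregs (edgeR adjusted p = 0.00187). Mapkapk3, a kinase downstream of p38, was 1.42-fold higher in the same comparison (edgeR adjusted p = 0.00766), while Mapk11, which encodes p38 beta, was 1.6-fold lower (edgeR adjusted p = 4.72e-05). Against Tconv, Eos+ Tregs were 2.28-fold higher for the stress kinase Map3k5 (edgeR adjusted p = 1.22e-05), 1.87-fold higher for Mapkapk2 (edgeR adjusted p = 0.00019) and 2.58-fold higher for Gadd45b (edgeR adjusted p = 0.00519), which activates the same branch. Eos- Tregs were also above Tconv for Map3k5 (1.82-fold, edgeR adjusted p = 0.000465) and Mapkapk2 (1.68-fold, edgeR adjusted p = 0.00219). For Gadd45b they passed only with the block (edgeR adjusted p = 0.18 without it and 0.011 with it).

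Downstream of ERK, 1 of 16 tested effector kinases and ETS factors was higher and 4 were lower in Eos+ than in Eos- Tregs (median -0.33), and 1 was higher and 6 lower in Eos+ Tregs than in Tconv (median -0.47). Eos- Tregs against Tconv gave 0 higher and 2 lower (median -0.08), with 1 higher at an unadjusted p under 0.05 and 0 with DESeq2. The shares over all tested genes were 9.82% higher and 6.45% lower, 17.3% and 13%, and 8.76% and 5.89% in the same order of comparisons. With the block the counts were 2 higher and 6 lower, 1 higher and 8 lower, and 1 higher and 2 lower in the same 3 comparisons. It called 22.8%, 36.3% and 21.5% of all tested genes in either direction. Ets2 was 2.13-fold lower in Eos+ than in Eos- Tregs (60.3 ± 13.4 against 129 ± 6.82 CPM, edgeR adjusted p = 0.000626) and Elk4 was 1.79-fold lower (54.0 ± 7.16 against 96.6 ± 15.2 CPM, edgeR adjusted p = 0.000579). Ets1 was 1.35-fold lower in the same comparison (1770 ± 111 against 2389 ± 182 CPM, edgeR adjusted p = 0.00302). The ERK effector kinase Rps6ka3 was 2.22-fold lower in Eos+ Tregs (edgeR adjusted p = 0.00613) and 2.04-fold lower in Eos- Tregs (edgeR adjusted p = 0.0225) than in Tconv.

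**Figure D5:**
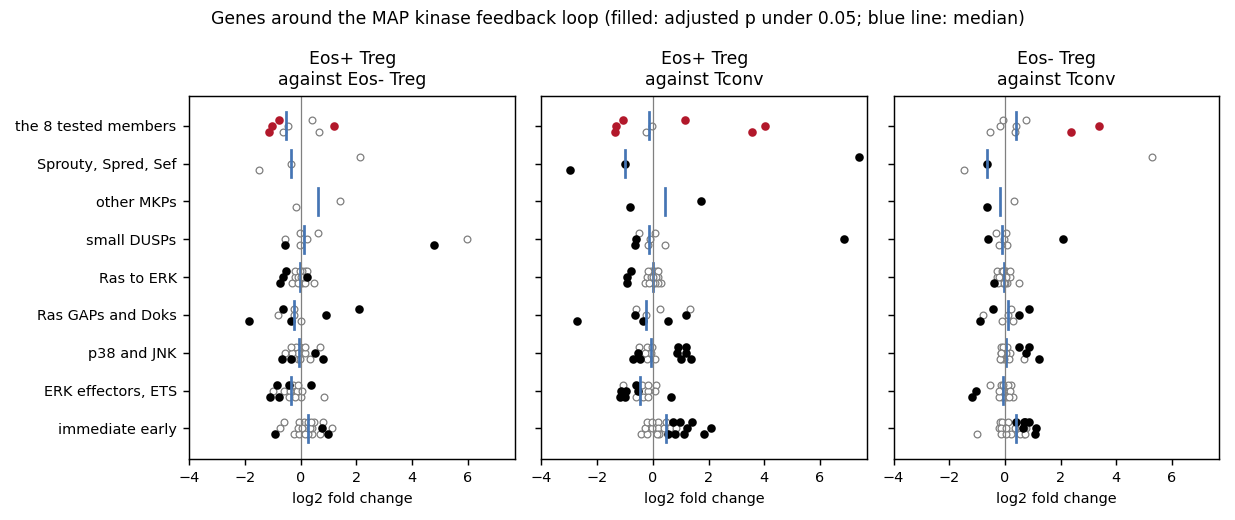
Log2 fold changes (horizontal axes) of the 8 tested genes, in the top row, and of the lists around them in the 3 comparisons; each point is a gene, filled where the edgeR adjusted p is under 0.05, and the blue line is the median of the row. The immediate early genes have 9 filled points above 0 and 0 below in Eos+ Tregs against Tconv, and the ERK effectors and ETS factors have 6 below and 1 above.

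The genes of the whole table whose pattern over the 12 libraries came nearest to each member were found by the root mean square (RMS) difference of log2 CPM, each gene centred on its own mean. For Dusp1 they were Ptger4 (0.238) and Dennd4a (0.245), for Dusp2 Nrip1 (0.125) and Xaf1 (0.187), and for Dusp4 Rgs16 (0.4) and Hopx (0.423). For Dusp5 they were Csrnp1 (0.274) and Cirbp (0.29), for Dusp6 Taf7 (0.193) and Tuba4a (0.224), and for Dusp10 H2-T24 (0.246) and Atp1b1 (0.25). For Spry1 they were Rarg (0.267) and Syt11 (0.27), and for Spred1 Atp1b1 (0.221) and Tanc1 (0.285). A gene with a small distance has the same relative levels in the same libraries, and Atp1b1, a subunit of the sodium pump, was near both Dusp10 and Spred1 at 39.7, 92.0 and 92.7 CPM in Eos+ Tregs, Eos- Tregs and Tconv. Among the 8 genes themselves the closest pair was Dusp6 and Dusp10 (0.316), followed by Dusp10 and Spred1 (0.405), and the farthest was Dusp4 and Dusp6 (2.3). Dusp4 and Spry1 were 0.551 apart.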

How the data were processed

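RNA-seq of 12 libraries was analysed, 4 from each of 3 sorted thymic CD4+ populations, with groups taken from the sample titles. The deposited table holds expected counts per gene, made by the authors with cutadapt 1.18, STAR 2.7.0f and RSEM 1.3.1 on mm10, per the submitters' processing notes. Settings of these tools, and the gene annotation used, are not given in the sources used here. GENCODE M21 held each of the 55450 gene IDs, and from it positions and exon lengths were taken. Rounded counts went into edgeR 4.0.16 under R 4.3.3 (quasi-likelihood F test, TMM, filterByExpr, 1 mean per group), two-sided, with Benjamini-Hochberg adjustment over 15361 genes per comparison and a threshold of 0.05. CPM use TMM-scaled totals. Depth ran from 23.9 to 37.9 M expected counts; floors of 3 counts cover counting error only. All 12 pairs of same-numbered libraries deviated together from their group means (r 0.138 to 0.318), so the numbers, which share a name token in the labels, were taken to pair the libraries. Alternatives were DESeq2 1.42.0, limma-voom (limma 3.58.1), RLE factors, no filter, 2 groups at a time, the replicate block, a test against a 1.5-fold change, and leaving out libraries. The edgeR steps were tested on simulated data. Beside the members, the text names up to 3 called genes per list and comparison. These had the largest change, no overlap of groups and a mean of 10 CPM. It also names the 2 genes nearest each member and the label genes Ikzf4, Foxp3, Ccr6, Cxcr4, Il2ra and Ctla4. Further genes fall outside that rule and were chosen after their values were seen. They are Il17rd, Dusp16, Spred3, Spry4, Dab2ip, Ighm, Pax5, Zbtb46, Xcr1, Cd74, Clec9a, Cd8b1, Pecam1, Epcam, Aire, Nkg7, Gzmb, Klrd1 and Klrb1c. Hspa1a, Hspa1b, Hsph1, Nr4a1 and Nr4a3 are the others. The members and lists were chosen with earlier results of these data known. Sequences are from RefSeq (GRCm38.p6).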

Additional observations from a re-analysis of the deposited data

Results flagged for a closer look

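In groups of 4 libraries, a library was singled out where its gap to the nearest other library, divided by the range of the group, exceeded Dixon's 95% critical value, and 13 of 236 groups of values did so; chance alone gives about 1 in 20. Spred1 in Eos+ Treg replicate 1 was 3.39 CPM, against 11.1 to 12.0 CPM in the other Eos+ Treg libraries (0.895 of the range). Spry4 was 0.0583 CPM in Eos+ Treg replicate 3 and 0.242 CPM in Eos- Treg replicate 3, and 0 in the other libraries of each group, a gap of 1 in both. Spred3 in Tconv replicate 3 was 0.28 CPM, below 0.915 to 0.973 CPM in the other Tconv libraries (0.917). Dusp7 in Eos- Treg replicate 1 was 48.1 CPM, above 34.1 to 36.4 CPM in the others (0.832). Map3k5 in Eos+ Treg replicate 2 was 71.9 CPM, above 63.8 to 64.4 CPM (0.922). Syt11 in Eos+ Treg replicate 4 was 176 CPM, below 207 to 211 CPM (0.863). Pax5 in Eos- Treg replicate 4 was 0.115 CPM, and 0 in the other Eos- Treg libraries (1). Xcr1 in Eos+ Treg replicate 1 was 5.96 CPM, above 1.75 to 2.1 CPM (0.917), and Cd8b1 in the same library was 78.0 CPM, above 15.5 to 26.0 CPM (0.832). Cd74 in Eos- Treg replicate 1 was 373 CPM, above 81.5 to 99.9 CPM (0.937). Clec9a in Eos- Treg replicate 2 was 0.94 CPM, above 0 to 0.0415 CPM (0.956). Nr4a3 in Tconv replicate 1 was 14.4 CPM, below 22.6 to 23.8 CPM (0.87). Spred1 is the member concerned, and its values without that library stand with its result; no cause was tested for any of these.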

How the results depend on the processing

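Each of the 24 log2 fold changes (8 genes in 3 comparisons) was refitted under 20 alternatives. With RLE factors, with no filter, and without the 3 libraries numbered 1, all 24 kept their direction and their side of the threshold. With the replicate block the called members were 7 for Eos+ against Eos- Tregs and 6 for Eos- Tregs against Tconv, and no call was lost; in Eos+ Tregs against Tconv the block changed no call. DESeq2 called 4 members in Eos- Tregs against Tconv. The test against a 1.5-fold change called 1 member in Eos+ against Eos- Tregs (Spry1) and 4 in Eos+ Tregs against Tconv, where Dusp1 (edgeR adjusted p = 0.0531) and Spred1 (0.119) no longer passed, and over all genes 778 in Eos+ against Eos- Tregs, 1854 in Eos+ Tregs against Tconv and 513 in Eos- Tregs against Tconv, against 2500, 4655 and 2249 with the test against no change. Dusp5 in Eos+ Tregs against Tconv, which did not pass in any fit, changed sign to 0.00 with limma-voom and 0.02 with the block, and ran from -0.26 to 0.38 over the fits that leave out 1 library. Dusp2 in Eos+ against Eos- Tregs passed with DESeq2 (adjusted p = 0.0113), limma-voom (0.0398) and 2 groups alone (0.0448). Spred1 in Eos+ against Eos- Tregs did not pass with 2 groups alone (edgeR adjusted p = 0.0737). Dusp1 in Eos- Tregs against Tconv passed without Eos- Treg replicate 1 (edgeR adjusted p = 0.034) or Tconv replicate 4 (0.0321), and Dusp6 there without Eos+ Treg replicate 2 (0.0481) or Tconv replicate 2 (0.0306). The cause of these shifts was not tested. Spry2, at 0 to 22 counts, could not be compared at this depth.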
